A study of Mus musculus with 14 samples.

Results

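The genes described here encode the E2F transcription factors and 2 of the pocket proteins that bind them, in mouse blood-forming cells with and without Prmt5. The members are the rows whose symbol is E2f1 to E2f8, Rb1 or Rbl1, taken by name without regard to their values. These 10 genes each had 1 row among the 45706 genes of the tables, and all 10 passed the filter on low counts, among 15566 genes tested in fetal liver and 13771 in LK cells.

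Prmt5 encodes the main enzyme for symmetric arginine dimethylation, which acts on histones, splicing proteins and other targets, E2F1 among them. RNA sequencing compared its deletion (KO) with controls carrying the same floxed alleles without Cre (WT) in 14 libraries. Ter119pos KO (2 libraries, mice 1 and 2) and Ter119neg KO (2 libraries, the same mice) came from PRMT5fl/fl; Vav-cre fetal livers at E14.5, Vav-cre being active across the blood system. Ter119pos WT (mice 5 and 4) and Ter119neg WT (mice 3 and 4) came from PRMT5fl/fl fetal livers of the same day. Ter119 is a surface antigen of maturing erythroid cells. LK KO (3 libraries, Mx1-cre;PRMT5fl/fl) and LK WT (3 libraries, PRMT5fl/fl), sorted progenitors, were collected 7 days after poly(I:C), which switches on the interferon-responsive Mx1-cre and which the design text gives for both genotypes. The labels give no strain, sex or age of the LK mice. Where nothing says that libraries came from separate mice, as in LK, p-values measure only the spread between these libraries.

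E2F factors bind gene promoters as dimers with a DP protein, except E2F7 and E2F8, which bind without one. E2F1, E2F2 and E2F3 are classed as activators, E2F4 and E2F5 work mainly with pocket proteins as repressors, E2F6 represses through polycomb proteins, and E2F7 and E2F8 repress without pocket proteins. The pocket proteins Rb (Rb1), p107 (Rbl1) and p130 (Rbl2) hold E2F factors inactive until cyclin-dependent kinases phosphorylate them. In erythroid cells, Rb and E2F2 are known for their part in leaving the cell cycle during the last divisions.

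Total expected counts were 19880052 to 29652947 in Ter119pos, 22381074 to 27620734 in Ter119neg and 19514550 to 30976961 in LK libraries. Prmt5 itself averaged 4.28 ± 0.90 CPM in Ter119pos KO and 15.7 ± 2.8 CPM in Ter119pos WT, 4.38 ± 0.18 CPM in Ter119neg KO and 52.0 ± 0.3 CPM in Ter119neg WT (SD, n = 2 each), and 11.5 ± 0.9 CPM in LK KO and 81.0 ± 25.5 CPM in LK WT (SD, n = 3 each). CPM, the usual depth-normalised counts, are given after TMM scaling, and the LK and fetal tables were scaled separately, so no level is tested across them. The TMM factors of libraries A and B were 0.482 and 0.408 in Ter119pos KO and 0.792 and 0.855 in Ter119pos WT. They were 1.63 and 1.36 in Ter119neg KO and 1.97 and 1.72 in Ter119neg WT. Differences between these groups depend on that scaling. Of 8 erythroid markers listed, 7 were found, and their summed level was 334524 to 438558 CPM in Ter119pos KO, 301154 to 335733 CPM in Ter119pos WT, 769 to 1375 CPM in Ter119neg KO and 399 to 486 CPM in Ter119neg WT. LK libraries carried 745 to 1170 CPM of stem and progenitor markers in KO and 557 to 802 CPM in WT, and also 8400 to 16287 CPM of neutrophil lineage genes in KO and 21474 to 46786 CPM in WT. In bulk RNA, fewer cells of a type and less RNA per cell cannot be told apart.

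Promoter sequences from RefSeq (GRCm38.p6, 250 bases before to 50 after a start site) were matched by symbol for 7 of the 10 members, with 9 start sites. The letters TTTGGCGC, TTTCCCGC, TTTGCCGC and TTTCGCGC, forms of the E2F binding motif, were searched on both strands. They occurred in promoters of 4 members, E2f2, E2f3, E2f7 and Rbl1, against 744 of all 32851 promoters in the table (2.26%). The 4 promoters are shown because they hold the letters. All 7 members with an entry were lower in Ter119pos KO cells, among them E2f1, E2f6 and E2f8, whose searched windows hold no match. The E2f1 window, chr2:154569377-154569676, lies inside the annotated gene (154559407 to 154569892, minus strand). The bases before the annotated 5′ end of E2f1 were therefore not searched. Each runs 5′ to 3′ on the strand of its gene, with the matching letters in capitals.
E2f2, chr4:136172024-136172323, plus strand: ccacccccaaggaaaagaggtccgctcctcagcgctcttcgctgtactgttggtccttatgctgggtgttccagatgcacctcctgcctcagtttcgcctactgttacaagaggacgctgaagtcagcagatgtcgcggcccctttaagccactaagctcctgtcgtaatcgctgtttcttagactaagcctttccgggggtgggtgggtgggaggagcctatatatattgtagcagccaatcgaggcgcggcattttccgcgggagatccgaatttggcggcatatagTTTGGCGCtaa
E2f3, chr13:29986014-29986313, minus strand: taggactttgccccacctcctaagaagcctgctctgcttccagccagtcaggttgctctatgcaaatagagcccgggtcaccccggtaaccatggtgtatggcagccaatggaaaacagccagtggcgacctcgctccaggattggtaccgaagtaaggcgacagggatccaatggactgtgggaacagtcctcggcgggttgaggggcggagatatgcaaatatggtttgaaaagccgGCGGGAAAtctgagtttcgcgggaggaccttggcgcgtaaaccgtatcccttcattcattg
E2f7, chr10:110745189-110745488, plus strand: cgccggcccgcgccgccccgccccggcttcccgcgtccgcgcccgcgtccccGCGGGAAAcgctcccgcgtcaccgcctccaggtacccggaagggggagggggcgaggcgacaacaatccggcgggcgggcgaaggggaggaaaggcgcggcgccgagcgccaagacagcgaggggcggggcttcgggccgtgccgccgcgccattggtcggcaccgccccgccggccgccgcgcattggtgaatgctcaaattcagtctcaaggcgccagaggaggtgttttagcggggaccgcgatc
Rbl1, chr2:157204485-157204784, minus strand: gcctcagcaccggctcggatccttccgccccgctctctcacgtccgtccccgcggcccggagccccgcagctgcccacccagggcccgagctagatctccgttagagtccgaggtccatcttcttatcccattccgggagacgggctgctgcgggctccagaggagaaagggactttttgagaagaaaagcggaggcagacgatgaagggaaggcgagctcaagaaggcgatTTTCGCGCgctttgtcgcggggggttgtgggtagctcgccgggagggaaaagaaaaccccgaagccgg
Counting the start site as +1, the match lay at -11 to -4 in E2f3, at -18 to -11 in Rbl1 and at -198 to -191 in E2f7. In E2f2 it lay downstream of the RefSeq start site, at +40 to +47, in the first of 2 start sites. That E2f2 window ends at 136172323, before the annotated gene (136172394 to 136196057, plus strand). The match thus lay upstream of the annotated 5′ end. A second motif, TTTGAA, the CHR element through which MuvB complexes bind, was found in 1 promoter each of E2f2 (its second start site), E2f3 and E2f8, against 17.9% of all promoters in the table. These matches are letters only and show no binding.

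**Figure D1:**
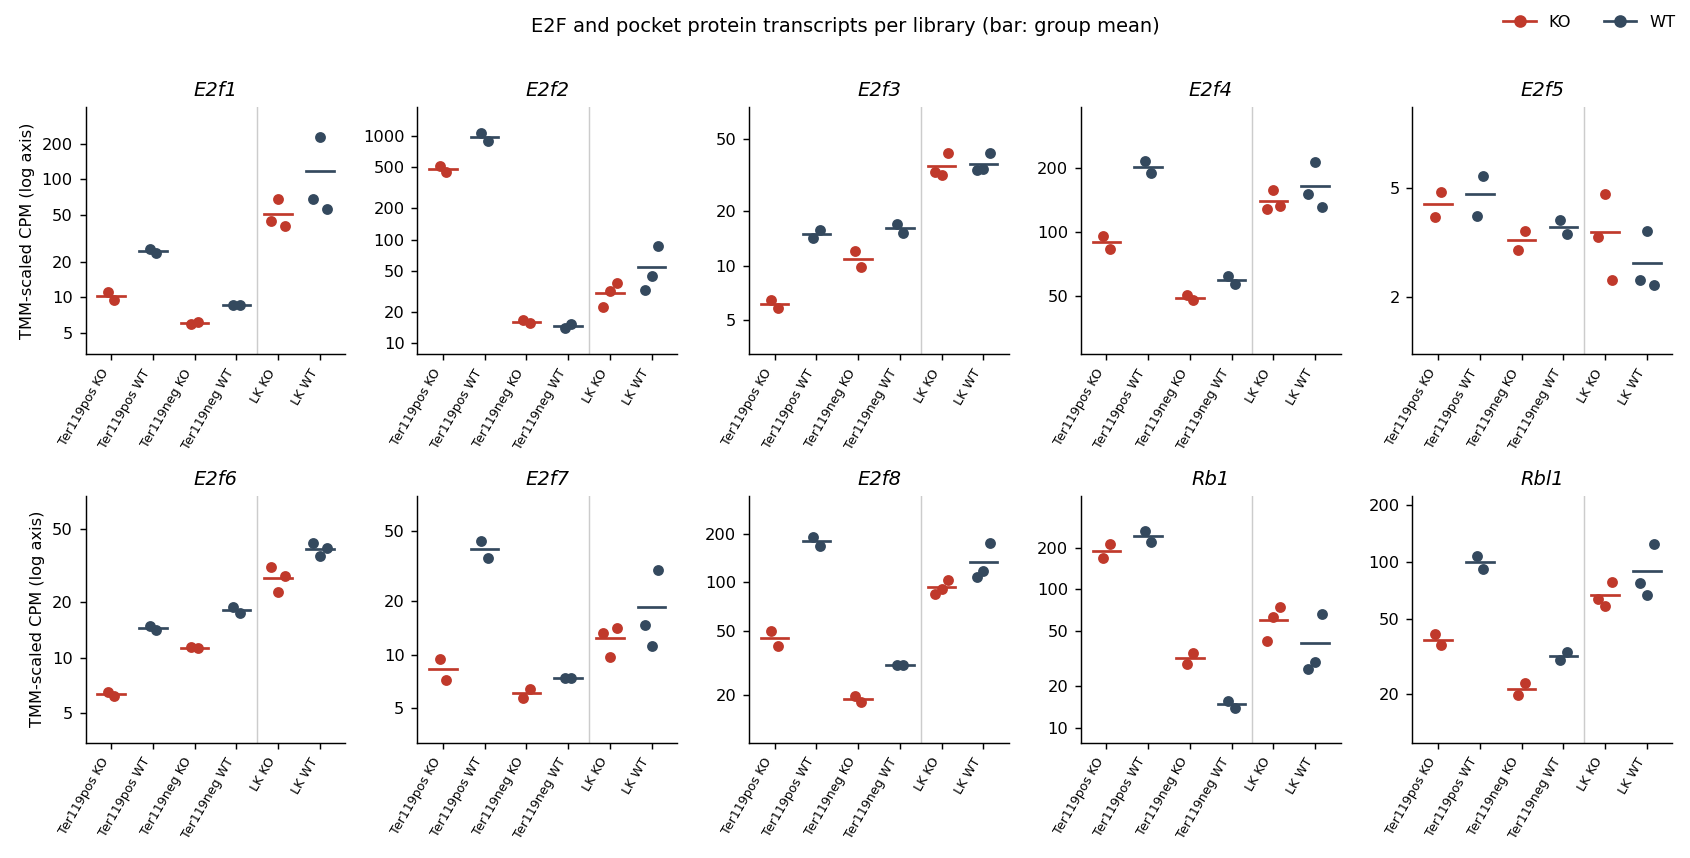
TMM-scaled CPM of the 10 genes in each of the 14 libraries, on a log axis that differs between panels; points are libraries, bars are group means, and the grey line parts fetal liver from LK cells, which were scaled separately. In Ter119pos cells the KO points lie below the WT points for all genes but E2f5, while Rb1 is the gene whose Ter119neg KO points (29.1 and 34.7 CPM) stand clearly above the WT points (15.7 and 14.0 CPM).

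Which E2F transcripts dominate differed by cell fraction, and E2f2 was the leading one in Ter119pos cells. To compare genes, CPM were divided by the length in kilobases of the longest annotated transcript. On this scale E2f2 made up 59.7% ± 0.12 of the summed level of the 8 E2f genes in Ter119pos KO cells and 53.6% ± 1.07 in Ter119pos WT cells (SD, n = 2 each). In Ter119neg cells the E2f2 share was 7.71% ± 0.09 in KO and 5.46% ± 0.51 in WT. There E2f4, the E2F that acts mainly as a repressor with p107 and p130, led with 55.7% ± 0.40 in KO and 52.4% ± 1.01 in WT. E2f4 also led in LK cells, with 49.9% ± 1.89 in KO and 41.9% ± 5.24 in WT (SD, n = 3 each). E2f8 followed in LK KO at 18.0% ± 2.10, against 19.0% ± 7.03 in LK WT, where E2f1 had 19.9% ± 11.3. E2f5, which can also pair with p130, was at 0.711% to 4.12%.

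The summed E2f level was 169 ± 16 CPM per kilobase in Ter119pos KO cells, against 383 ± 41.6 in Ter119pos WT cells (SD, n = 2 each). It was 44.1 ± 1.32 in Ter119neg KO against 56.7 ± 2.35 in Ter119neg WT cells, and 140 ± 12.5 in LK KO against 199 ± 49.6 in LK WT cells. These sums and shares are given without a test.

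**Figure D2:**
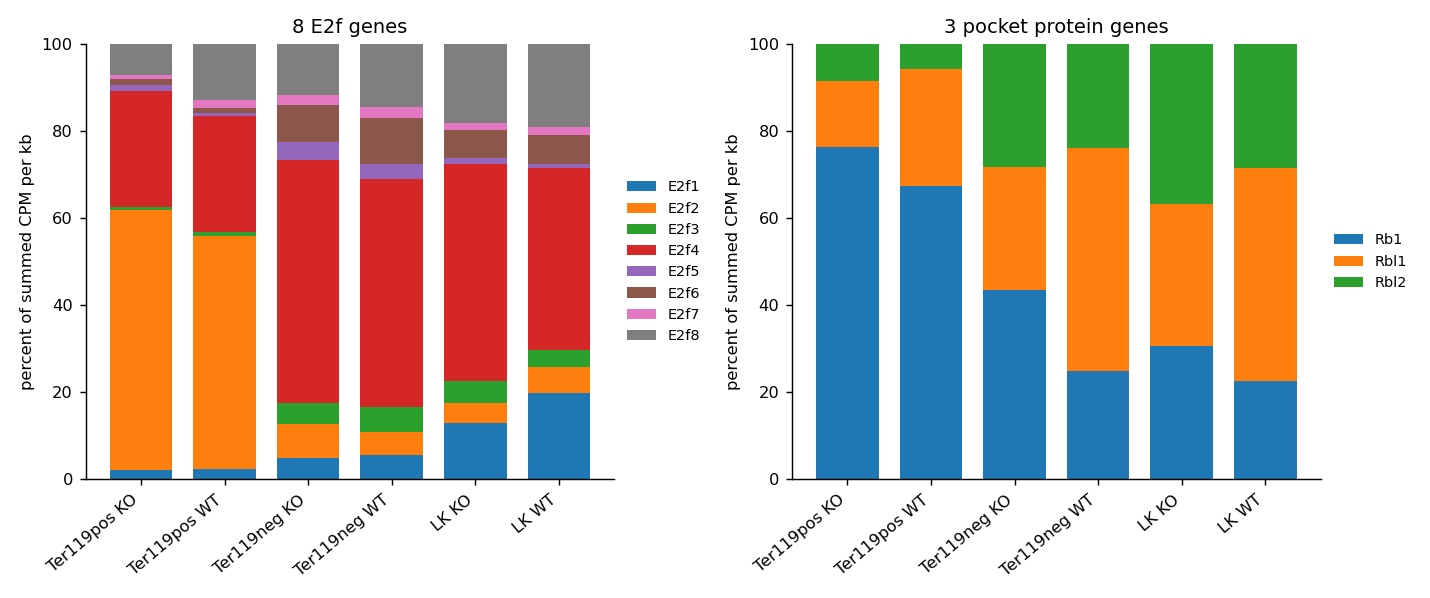
Mean share of each gene in the summed CPM per kilobase of longest transcript, for the 8 E2f genes (left) and for Rb1, Rbl1 and Rbl2 (right), in the 6 groups. E2f2 takes the largest part of the E2f bar in both Ter119pos groups (59.7% KO, 53.6% WT), E2f4 leads elsewhere, and Rbl1 takes a smaller part of the pocket protein bar in KO than in WT in each population.

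Ter119pos cells had far more E2f2 and Rb1 RNA than Ter119neg cells, in KO and in WT. Of the 10 genes, 7 were higher in Ter119pos than in Ter119neg WT cells and 1, E2f6, was lower, where 35.9% of all tested genes were called higher and 40.4% lower (edgeR quasi-likelihood F test, Benjamini-Hochberg adjusted over all genes tested, threshold 0.05). In KO cells 7 were higher and 2, E2f3 and E2f6, lower, where 30.3% of all genes were called higher and 32.3% lower. The median log2 difference over the 10 was 1.71 in WT, against -0.19 over all genes, and 0.82 in KO, against -0.12 over all genes.

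E2f2 (chromosome 4, 136172394 to 136196057, plus strand), an activator class E2F, had 510 and 447 CPM in Ter119pos KO and 16.6 and 15.7 CPM in Ter119neg KO libraries. Its values were 1062 and 885 CPM in Ter119pos WT and 14.1 and 15.2 CPM in Ter119neg WT libraries. Every Ter119pos library was thus far above every Ter119neg library. The log2 difference between the fractions was 4.89 ± 0.17 (SE; edgeR adjusted p = 5.1e-10) in KO and 6.06 ± 0.18 (edgeR adjusted p = 5.93e-11) in WT, the widest among the 10 genes in both genotypes.

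Rb1 (chromosome 14, 73183673 to 73325822, minus strand), the founding pocket protein gene, had 169 and 212 CPM in Ter119pos KO against 29.1 and 34.7 CPM in Ter119neg KO libraries. In WT it had 265 and 220 CPM in Ter119pos against 15.7 and 14.0 CPM in Ter119neg libraries. Fractions did not overlap in either genotype. The log2 difference was 2.58 ± 0.16 (SE; edgeR adjusted p = 3.65e-08) in KO and 4.03 ± 0.17 (edgeR adjusted p = 6.41e-10) in WT.

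The atypical repressors E2f8 and E2f7 came next in WT, with log2 differences between Ter119pos and Ter119neg of 2.56 ± 0.13 and 2.42 ± 0.15, but of 1.25 ± 0.13 and 0.47 ± 0.17 in KO. E2f4, Rbl1 and E2f1 were 1.78, 1.65 and 1.52 higher on the log2 scale in Ter119pos WT cells, and 0.87, 0.86 and 0.77 in Ter119pos KO cells. In unscaled expected counts E2f4 had 1365 and 969 in Ter119pos KO and 1830 and 1795 in Ter119neg KO libraries. Rbl1 had 592 and 421 against 723 and 863, and E2f1 158 and 110 against 215 and 232. E2f7 and E2f8 also had fewer expected counts in Ter119pos KO, whose libraries had the larger total counts. The direction of these genes in KO thus rests on the scaling, and no alternative, all of them scaled, reversed it. The call for E2f7 in KO (edgeR adjusted p = 0.0318) was lost without Ter119pos KO library A, where the difference was 0.23, and without Ter119neg KO library A. It was also lost by limma-voom (0.47, adjusted p = 0.0585) and with no filter on low counts (0.38, edgeR adjusted p = 0.0687). E2f6, the polycomb-linked E2F, was lower in Ter119pos cells by -0.83 ± 0.13 in KO and -0.32 ± 0.11 in WT, and the WT call (edgeR adjusted p = 0.0217) was lost without Ter119neg WT library A or Ter119pos WT library B. That WT call was also lost by DESeq2 (-0.29, adjusted p = 0.129). Removing the length trend (-0.12, edgeR adjusted p = 0.351) or testing protein-coding genes only (-0.21, edgeR adjusted p = 0.115) lost it too. E2f5 was not called in either genotype (0.43 ± 0.23 in KO and 0.40 ± 0.21 in WT). Without Ter119pos WT library A its WT difference was 0.61. With the length trend removed E2f5 was called higher in WT (0.68; edgeR adjusted p = 0.0104). Testing protein-coding genes only called it higher in WT (0.51; edgeR adjusted p = 0.036) and in KO (0.58; edgeR adjusted p = 0.0346). The Ter119pos and Ter119neg libraries of mice 1, 2 and 4 came from the same animals. With the mouse as a replicate block, E2f5 was higher in Ter119pos WT cells (0.71; edgeR adjusted p = 0.0343) and E2f6 was not called in WT (-0.30; edgeR adjusted p = 0.0688).

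Over the 4 fetal groups, 6 members had their highest mean in Ter119pos WT, then Ter119pos KO, then Ter119neg WT and Ter119neg KO, namely E2f1, E2f4, E2f5, E2f7, E2f8 and Rbl1. Neighbours in that order did not overlap for E2f1, E2f4, E2f8 and Rbl1. For E2f7 the Ter119pos KO libraries overlapped the Ter119neg WT libraries, and for E2f5 KO and WT overlapped in both fractions. E2f2 and Rb1 had the same first places but Ter119neg KO above Ter119neg WT, with no overlap. E2f3 and E2f6 were highest in Ter119neg WT, then Ter119pos WT, Ter119neg KO and Ter119pos KO, and only the first 2 groups of E2f3 overlapped.

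**Figure D3:**
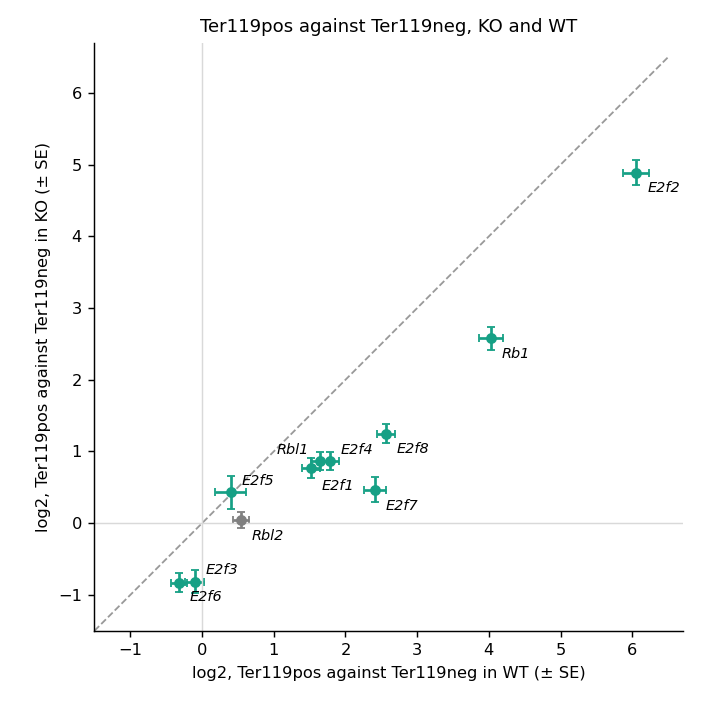
Log2 difference between Ter119pos and Ter119neg cells for the 10 genes (green) and Rbl2 (grey), in KO on the vertical and in WT on the horizontal axis, with SE bars; the dashed line marks equal differences. All genes but E2f5 lie below the line, E2f7 (0.47 in KO, 2.42 in WT) and Rb1 (2.58 in KO, 4.03 in WT) farthest.

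In Ter119pos cells, 8 of the 10 genes were lower in KO than in WT and E2f5 and Rb1 were not called, where 24.8% of all tested genes were called higher and 29.3% lower. The median log2 fold change of the 10 genes was -1.22, against -0.04 over all genes. The 2 atypical repressor genes fell most. The remaining called members lay close together, between -1.36 and -1.02.

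E2f7 (chromosome 10, 110745439 to 110787384, plus strand), which represses E2F target genes and is itself an E2F target, had 9.52 and 7.16 CPM in KO and 44.0 and 35.2 CPM in WT Ter119pos libraries. It was 4.72-fold lower in KO (log2 -2.24 ± 0.16, SE; edgeR adjusted p = 3.96e-07). E2f8 (chromosome 7, 48866429 to 48881596, minus strand), its partner in heterodimers, had 49.8 and 39.9 CPM in KO and 191 and 169 CPM in WT libraries. Its log2 fold change was -2.0 ± 0.13, or 4.00-fold lower (edgeR adjusted p = 2.31e-07). Neither gene's KO libraries came near the WT libraries.

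Among the activator class, E2f1 (chromosome 2, 154559407 to 154569892, minus strand) had 11.1 and 9.49 CPM in KO and 25.7 and 23.6 CPM in WT Ter119pos libraries (log2 fold change -1.26 ± 0.13; edgeR adjusted p = 5.92e-06). E2f3 (chromosome 13, 29906575 to 29986063, minus strand) had 6.51 and 5.87 CPM in KO and 14.3 and 15.7 CPM in WT libraries (-1.27 ± 0.16; edgeR adjusted p = 2.62e-05). E2f2, the most abundant E2f in these cells per length, was 2.03-fold lower in KO (-1.02 ± 0.15; edgeR adjusted p = 7.86e-05). KO and WT libraries did not overlap for any of the 3 genes.

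The repressor E2f4 (chromosome 8, 105297663 to 105305370, plus strand) had 95.6 and 83.6 CPM in KO against 217 and 189 CPM in WT Ter119pos libraries (-1.18 ± 0.12; edgeR adjusted p = 6.14e-06). E2f6 (chromosome 12, 16810963 to 16839742, plus strand) had 6.51 and 6.21 CPM in KO against 14.8 and 14.2 CPM in WT libraries (-1.18 ± 0.14; edgeR adjusted p = 1.18e-05). Both fold changes lay within the range of the 3 activator genes. E2f5 (chromosome 3, 14578641 to 14606309, plus strand) was scarce, at 3.92 and 4.83 CPM in KO and 3.97 and 5.53 CPM in WT libraries, which overlap (-0.13 ± 0.23; edgeR adjusted p = 0.673).

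The pocket protein genes parted. Rbl1 (chromosome 2, 157145893 to 157204534, minus strand), the gene of p107 and a known E2F target, had 41.4 and 36.3 CPM in KO and 108 and 92.4 CPM in WT Ter119pos libraries (-1.36 ± 0.13; edgeR adjusted p = 2.02e-06). Rb1 was not called (-0.35 ± 0.15; edgeR adjusted p = 0.0692), although both KO libraries were below both WT libraries. DESeq2 called it lower (-0.36; adjusted p = 0.0438). Without Ter119pos KO library B its log2 fold change was -0.51 (edgeR adjusted p = 0.0328), and without Ter119pos WT library B -0.48 (edgeR adjusted p = 0.0406). Rbl2 (chromosome 8, 91070057 to 91123844, plus strand), the gene of p130, typical of resting cells, averaged 22.6 ± 2.34 CPM in KO and 22.1 ± 0.42 CPM in WT (SD, n = 2 each; 0.03 ± 0.12; edgeR adjusted p = 0.867).

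Genes of dividing cells moved with these results. All 6 cycling cell markers were lower in Ter119pos KO cells, with a median log2 fold change of -1.18, and their summed level was 1866 to 1878 CPM in KO against 10916 to 12522 CPM in WT. Most of that sum was Mki67, a proliferation antigen, at 1243 ± 8 CPM in KO and 9887 ± 1052 CPM in WT (SD, n = 2 each). Their part in the fall of the E2F genes was not tested. None of the 7 erythroid markers was called higher and 1 was called lower. Of all genes, 24.8% were called higher and 29.3% lower in that comparison.

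**Figure D4:**
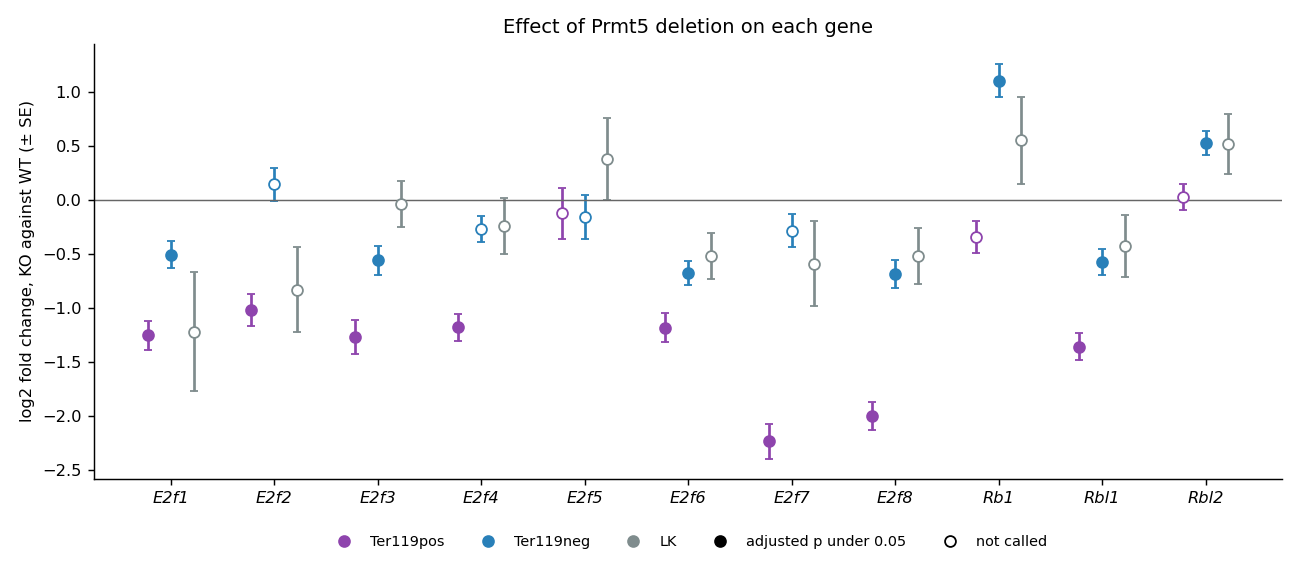
Log2 fold change of KO against WT with its SE for the 10 genes and Rbl2 in Ter119pos, Ter119neg and LK cells; filled points passed an adjusted p of 0.05. The Ter119pos points lie lowest for 9 of the 10 genes, all but E2f5, E2f7 (-2.24) and E2f8 (-2.0) most, while Rb1 is above 0 in Ter119neg (1.10) and below 0 in Ter119pos (-0.35).

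In Ter119neg cells the changes were smaller and went both ways. Rb1 was higher in KO, and E2f1, E2f3, E2f6, E2f8 and Rbl1 were lower, so that 1 of 10 members was called higher and 5 lower, where 9.57% of all genes were called higher and 9.55% lower. The median log2 fold change of the 10 genes was -0.40, against 0.01 over all genes.

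Rb1 was 2.15-fold higher in KO, at 29.1 and 34.7 CPM against 15.7 and 14.0 CPM in WT Ter119neg libraries (log2 fold change 1.10 ± 0.16; edgeR adjusted p = 0.000511). Rbl2, with a mean of 21.9 ± 0.92 CPM in KO and 15.2 ± 0.51 CPM in WT (SD, n = 2 each), was also higher (0.53 ± 0.11; edgeR adjusted p = 0.00561). Rbl1 went the other way, at 19.9 and 23.0 CPM in KO and 30.4 and 33.5 CPM in WT libraries (-0.58 ± 0.12; edgeR adjusted p = 0.00633). Per length, Rb1 thus made up 43.6% ± 1.30 of the 3 pocket protein transcripts in Ter119neg KO and 24.9% ± 2.54 in Ter119neg WT cells, and Rbl1 28.0% ± 0.19 in KO and 51.2% ± 2.29 in WT (SD, n = 2 each).

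E2f8 was at 19.7 and 18.1 CPM in KO and at 30.4 CPM in both WT Ter119neg libraries (-0.69 ± 0.13; edgeR adjusted p = 0.00282). E2f6 was at 11.4 and 11.3 CPM in KO and 18.8 and 17.4 CPM in WT libraries (-0.68 ± 0.11; edgeR adjusted p = 0.00131). In both genes the 2 genotypes were well apart. E2f1 was at 5.91 and 6.17 CPM in KO and 8.54 and 8.66 CPM in WT libraries (-0.51 ± 0.13; edgeR adjusted p = 0.0146), and E2f3 at 12.0 and 9.84 CPM in KO and 17.0 and 15.2 CPM in WT libraries (-0.56 ± 0.13; edgeR adjusted p = 0.0112).

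Some of these calls depended on single libraries. Leaving out any single Ter119neg library took E2f1 past the threshold (edgeR adjusted p = 0.0537 to 0.0805, log2 fold change -0.59 to -0.51). E2f3 lost its call without Ter119neg KO library B (-0.47) or Ter119neg WT library A (-0.51), Rbl1 without Ter119neg KO library A (-0.51), and Rbl2 without Ter119neg KO library B (0.44) or Ter119neg WT library A (0.46). E2f2 (0.14 ± 0.15), E2f4 (-0.27 ± 0.12), E2f5 (-0.16 ± 0.20) and E2f7 (-0.29 ± 0.15) were not called.

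Cell type markers in the Ter119neg fraction also differed between genotypes. Of 7 erythroid markers tested, 6 were higher in KO (median log2 fold change 1.32), with a summed level of 769 to 1375 CPM in KO and 399 to 486 CPM in WT. All 10 macrophage markers were lower, at a summed 30.7 to 34.5 CPM in KO and 131 to 138 CPM in WT, with none at 0. Of the 6 cycling cell markers 4 were lower, at a summed 554 to 556 CPM in KO and 837 to 874 CPM in WT. Neutrophil lineage genes summed to 949 to 1332 CPM in KO and 1716 to 1779 CPM in WT, with 1 of 8 called lower. Hepatoblast genes summed to 123 to 251 CPM in KO and 268 to 431 CPM in WT, with 2 of 6 called lower. None of either list was called higher. In that comparison 9.57% of all genes were called higher and 9.55% lower. The part of these markers in the Rb1 and E2f results was not tested.

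The KO effect differed between the fractions for 9 of the 10 genes, and was lower in Ter119pos for all 9, where 19.3% of all genes had a higher and 22.4% a lower effect. The median difference over the 10 genes was -0.85 on the log2 scale, against -0.005 over all genes. E2f7 had the widest difference, -1.95 ± 0.23 (SE; edgeR adjusted p = 5.19e-05), from -2.24 in Ter119pos and -0.29 in Ter119neg. Rb1 followed with -1.45 ± 0.22 (edgeR adjusted p = 0.000246), its KO effect being below 0 in Ter119pos and above 0 in Ter119neg cells.

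E2f8 (-1.31 ± 0.18), E2f2 (-1.17 ± 0.21) and E2f4 (-0.91 ± 0.17) had the next widest differences. Those of Rbl1 (-0.79 ± 0.17), E2f1 (-0.75 ± 0.18), E2f3 (-0.71 ± 0.21) and E2f6 (-0.50 ± 0.18) were smaller, and that of E2f5 was 0.03 ± 0.31. Without Ter119neg WT library A the called differences of E2f1, E2f3, E2f6 and Rbl1 were lost, and fewer of all genes had one. The call of E2f6 was lost in 12 of 16 other settings and that of E2f3 in 6, and Rbl2, not among the 10 genes, lost its call (-0.50 ± 0.16) in 10. Removing haemoglobin genes before scaling moved the median of all genes to 0.12 and left 7 calls, without E2f3 and E2f6.

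In LK cells, none of the 10 genes was called when the libraries were compared as unpaired groups, where 1.15% of all genes were called higher and 0.661% lower. By unadjusted p under 0.05, 1 member (E2f6) differed, and DESeq2 and limma-voom also called 0. Of all genes, DESeq2 called 1074 and limma-voom 303. LK libraries of the same letter deviated together from their group means, and with the letter as a replicate block 4 members were lower in KO, where 9.9% of all genes were called higher and 12.8% lower. What libraries of 1 letter have in common is not given. The median of the 10 was -0.47 unpaired and -0.44 with the block, against -0.09 and -0.06 over all genes.

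The 4 members lower with the letter block were E2f1 (log2 fold change -0.96 ± 0.25; edgeR adjusted p = 0.0347), E2f2 (-0.75 ± 0.17; 0.0243), E2f6 (-0.53 ± 0.14; 0.0332) and E2f8 (-0.49 ± 0.14; 0.0487). E2f6 had 30.8, 22.6 and 27.5 CPM in KO and 41.9, 35.4 and 39.0 CPM in WT libraries A to C. E2f8 had 84.7, 90.9 and 103 CPM in KO and 108, 117 and 175 CPM in WT libraries. In these 2 genes every KO library lay below every WT library.

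E2f1 had 44.0, 67.5 and 40.4 CPM in LK KO and 68.6, 230 and 56.5 CPM in LK WT libraries A to C. WT library B stands far above the rest, and without it the unpaired log2 fold change was -0.31, against -1.22 ± 0.55 with all 6 libraries. Among the KO libraries B was also the highest. The TMM factors of library B were 0.757 in LK KO and 0.633 in LK WT, against 1.15 to 1.24 in the other LK libraries. E2f2 had 22.3, 31.6 and 38.2 CPM in KO and 32.7, 44.8 and 86.5 CPM in WT libraries. Each KO library lay below the WT library of its letter, and without WT library C the unpaired value was -0.33, against -0.83 ± 0.40.

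Of the others in LK, Rb1 (0.55 ± 0.41), E2f7 (-0.59 ± 0.39), Rbl1 (-0.43 ± 0.29), E2f5 (0.37 ± 0.38), E2f4 (-0.24 ± 0.26) and E2f3 (-0.04 ± 0.21) were not called unpaired, nor with the block. Rb1 came closest with the block, at 0.63 ± 0.19 (edgeR adjusted p = 0.0522), with 42.3, 63.4 and 75.1 CPM in KO and 26.6, 29.8 and 66.9 CPM in WT libraries. Rbl2 was higher with the block (0.56 ± 0.16; edgeR adjusted p = 0.0415) and not called without it (0.52 ± 0.28). As in Ter119neg cells, the Rbl1 share of pocket protein transcripts per length was lower in KO, 32.7% ± 1.73, than in WT, 48.9% ± 1.51 (SD, n = 3 each). Cycling cell markers summed to 889 to 1436 CPM in LK KO and 1022 to 2411 CPM in LK WT, with none of 6 called, and neutrophil lineage genes to less in every KO than in every WT library. Their part in the LK values was not tested. Unpaired, 1.15% of all LK genes were called higher and 0.661% lower.

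The DP partners followed the E2F genes in part. Tfdp1, the gene of DP1, averaged 40.6 ± 2.2 CPM in KO and 86.0 ± 1.2 CPM in WT Ter119pos cells (log2 fold change -1.08 ± 0.10; edgeR adjusted p = 2.95e-06) and was also lower in Ter119neg KO (-0.49 ± 0.10; edgeR adjusted p = 0.00494). Tfdp2, the gene of DP2, was 5.38 ± 0.19 higher on the log2 scale in Ter119pos than in Ter119neg WT cells and fell to 380 ± 43 CPM in Ter119pos KO, against 1141 ± 161 CPM in Ter119pos WT cells (-1.59 ± 0.16; edgeR adjusted p = 4.73e-06). In Ter119neg KO against WT it was not called (0.28 ± 0.16), and in LK neither gene was.

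Of 7 MuvB and DREAM partners, all but Mybl2 and Foxm1 are proteins that E2F4 and p107 or p130 join to repress cell cycle genes. In Ter119pos KO cells 6 of the 7 were lower and 1 higher, where 29.3% of all genes were called lower and 24.8% higher. In Ter119neg KO cells 3 were lower and 1 higher, where 9.55% of all genes were called lower and 9.57% higher. Foxm1, a mitotic gene activator, was lower in both (-1.85 ± 0.13 and -0.53; edgeR adjusted p = 3.77e-07 and 0.0121), as were Mybl2 (-1.25 and -0.36) and Lin54 (-1.24 and -0.42). Lin37, a subunit needed for repression, was the member that was higher (0.82 ± 0.15 in Ter119pos, 0.46 in Ter119neg). In LK none was called (0 of 7 also by unadjusted p), and with the letter block 1 was, Foxm1 (-0.56; edgeR adjusted p = 0.022). With that block 12.8% of all genes were called lower. The list median was -1.24, -0.28 and -0.24 in Ter119pos, Ter119neg and LK cells.

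Cyclins and kinases that phosphorylate pocket proteins moved both ways, and of 8 listed Ccnd2, a D-type cyclin gene, changed most in Ter119pos cells. Ccnd2 was higher in KO in all 3 populations, by 3.14 ± 0.17 in Ter119pos, 0.69 ± 0.15 in Ter119neg and 1.40 in LK (edgeR adjusted p = 9.03e-08, 0.00809 and 0.0295). Ccnd3, the main D-type cyclin of erythroid precursors, averaged 622 ± 16 CPM in KO and 331 ± 33 CPM in WT Ter119pos cells (0.91 ± 0.14), and Ccnd1 was higher in LK KO (1.91; edgeR adjusted p = 0.0303). In Ter119pos KO, Cdk2 (-0.65 ± 0.11), Ccne2 (-0.36 ± 0.13) and Ccne1 (-0.28 ± 0.11), the last named after its value was seen, were lower. Over the list, 2 were higher and 3 lower in Ter119pos KO, 1 higher and 2 lower in Ter119neg KO, and 2 higher and 0 lower in LK KO cells, or 3 higher and 1 lower with the LK letter block. The Ter119pos counts lie near the shares of all genes in that comparison, 24.8% higher and 29.3% lower. The shares of all genes were 9.57% higher and 9.55% lower in Ter119neg. In LK they were 1.15% and 0.661% unpaired, and 9.9% and 12.8% with the letter block. The list medians were 0.20, -0.23 and -0.36 in Ter119pos, Ter119neg and unpaired LK, against -0.04, 0.01 and -0.09 over all genes.

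Inhibitors of these kinases also moved both ways. Cdkn1a, the p53-induced inhibitor p21, averaged 286 ± 41 CPM in KO and 1.37 ± 0.10 CPM in WT Ter119pos cells (log2 fold change 7.70 ± 0.52), 52.0 ± 4.7 CPM in KO and 3.47 ± 3.09 CPM in WT Ter119neg cells (3.87 ± 0.41), and 275 ± 85 CPM in KO and 10.1 ± 3.1 CPM in WT LK cells (4.77 ± 0.38; SD, n = 2 each in fetal and 3 each in LK cells; edgeR adjusted p = 2.67e-07, 6.88e-05 and 0.00293). Cdkn2c and Cdkn2d, genes of the INK4 inhibitors p18 and p19, were lower in Ter119pos KO (-1.62 ± 0.16 and -1.48 ± 0.12), as was Cdkn1b, the gene of p27 (-0.57 ± 0.13). Of 7 inhibitors listed 5 were tested in fetal cells, and 2 were higher and 3 lower in Ter119pos KO, where 24.8% of all genes were called higher and 29.3% lower. In Ter119neg KO 1 was higher and 1, Cdkn2c (-1.08), lower, where 9.57% of all genes were called higher and 9.55% lower. Of 4 tested in LK, Cdkn1a alone was called unpaired, and with the letter block Cdkn2c (-1.39; edgeR adjusted p = 0.00182) and Cdkn2d (-1.20; 0.0195) were lower. With that block 12.8% of all genes were called lower. In WT cells Cdkn2d, Cdkn2c and Cdkn1b were 4.25, 4.22 and 3.80 higher on the log2 scale in Ter119pos than in Ter119neg.

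Known E2F target genes of the G1 to S transition and DNA replication, 34 in the list and all tested, fell widely in Ter119pos KO. There 27 were lower and 2 higher than in WT (median log2 fold change -0.67, against -0.04 over all genes). Of all genes, 29.3% were called lower and 24.8% higher in that comparison. In Ter119neg KO 11 targets were lower (median -0.19), where 9.55% of all genes were called lower. Fewer targets, and fewer of all genes, were called with any single Ter119neg library left out. In LK none of 34 was called unpaired (5 by unadjusted p under 0.05, 2 by DESeq2 and 1 by limma-voom). Among the 13771 genes tested in LK, edgeR called 250, DESeq2 1074 and limma-voom 303. With the letter block 7 were lower, where 12.8% of all genes were called lower. The list median in LK was -0.31 unpaired and -0.30 with the block.

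Dnmt1, the maintenance DNA methyltransferase, averaged 117 ± 12 CPM in KO and 428 ± 17 CPM in WT Ter119pos cells (-1.88 ± 0.14; edgeR adjusted p = 4.97e-07). Pole and Pola1, genes of the catalytic subunits of DNA polymerases epsilon and alpha, fell by 1.74 and 1.63 on the log2 scale. Tk1, thymidine kinase, was lower in Ter119pos (-1.16 ± 0.11; edgeR adjusted p = 1.99e-06) and in Ter119neg KO cells (-1.07 ± 0.11; 4.58e-05), and in LK KO cells with the letter block (-1.58; 0.00267), where it was -1.66 ± 0.33 unpaired (0.0567). Pold1, the catalytic subunit gene of polymerase delta, was lower in Ter119neg KO (-1.10 ± 0.11) and with the LK block (-0.82). The 2 targets that were higher in Ter119pos KO, named after their values were seen, were Rfc4 (0.78 ± 0.13), a subunit of the clamp loader, and Cdt1 (0.39 ± 0.13), which licenses replication origins.

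**Figure D5:**
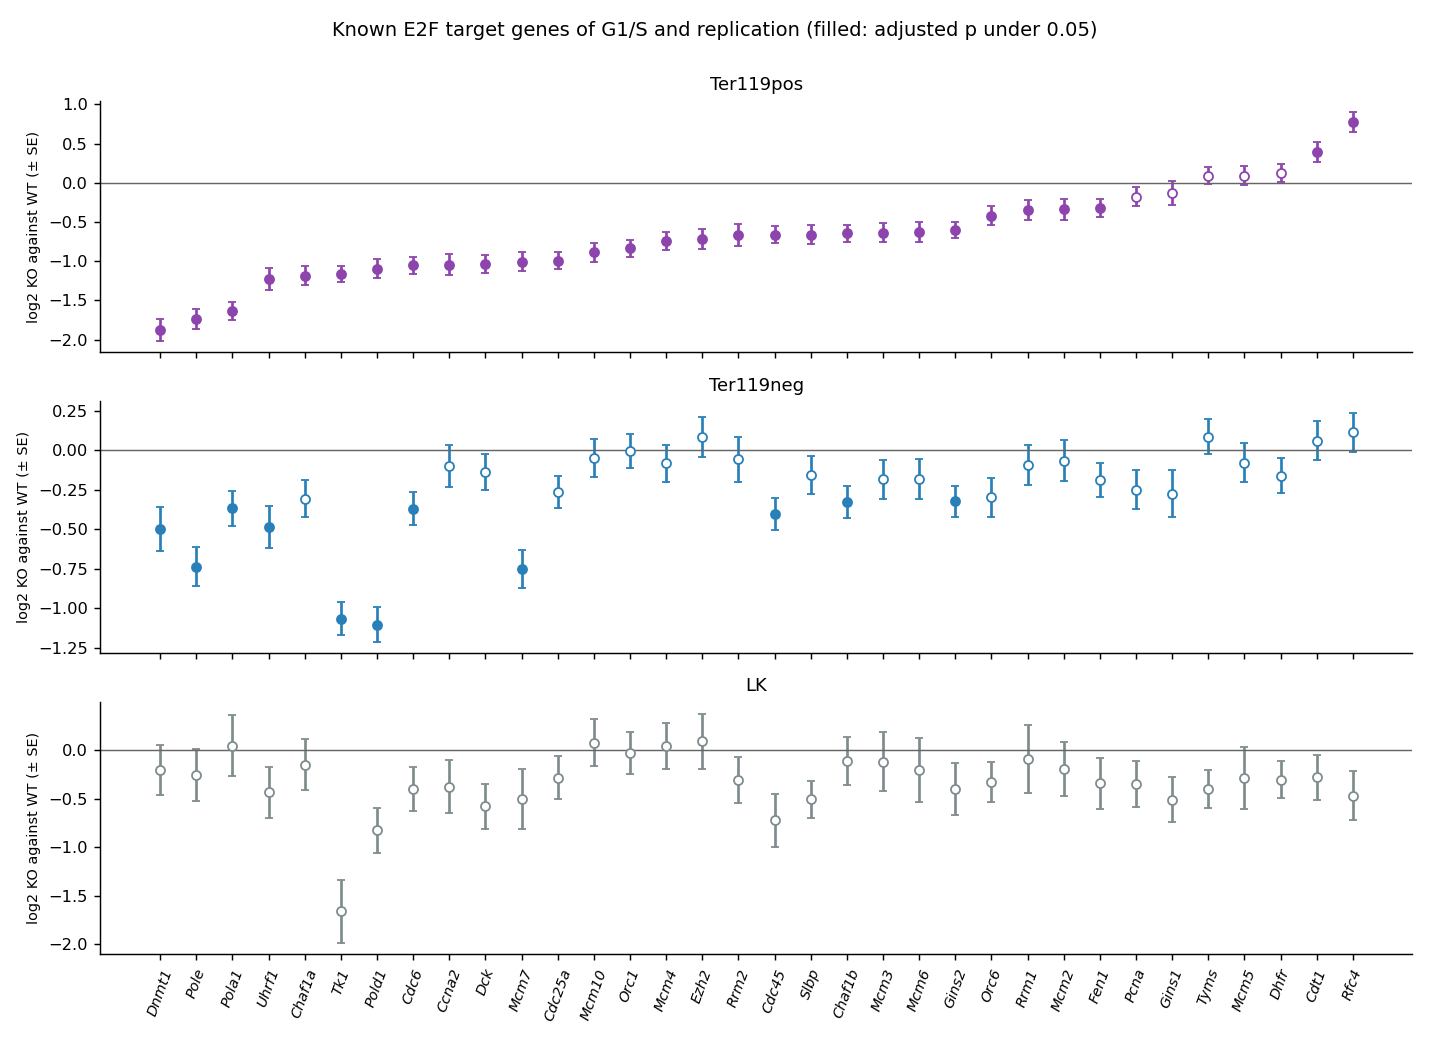
Log2 fold change of KO against WT with its SE for the 34 listed E2F target genes in Ter119pos, Ter119neg and LK cells, all 3 panels ordered by the Ter119pos value; filled points passed an adjusted p of 0.05, and the vertical axes differ. In Ter119pos cells 27 filled points lie below 0 and 2 above, in Ter119neg cells 11 lie below 0, and in LK cells none is filled.

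Between fractions the targets were mostly higher in Ter119pos cells. In KO 22 of 34 were higher and 4 lower (median 0.51, against -0.12 over all genes), where 30.3% of all genes were called higher and 32.3% lower. In WT 30 were higher and 2 lower (median 0.86, against -0.19 over all genes), where 35.9% of all genes were called higher and 40.4% lower. Dck, a nucleoside kinase, Rrm2, the small subunit of ribonucleotide reductase, and Ccna2, cyclin A2, were 2.58, 2.65 and 2.55 higher in WT and 1.69, 2.04 and 1.6 higher in KO. The KO effect was lower in Ter119pos than in Ter119neg for 15 targets and higher for 1, where 22.4% of all genes had a lower and 19.3% a higher effect.

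Of 10 polycomb PRC1.6 proteins that work with E2F6, 3 were lower and 1 higher in Ter119pos KO cells, shares near or under those of all genes (29.3% lower and 24.8% higher), with Cbx3 (-1.03 ± 0.13), Rybp (-0.96 ± 0.14) and Mga (-0.56 ± 0.11) being lower and Rnf2 (0.83 ± 0.15) higher. By edgeR none was called in Ter119neg (2 by unadjusted p under 0.05) or unpaired in LK (1 by unadjusted p). With the letter block Mga was higher (0.99) and 1 other was lower, where 9.9% of all genes were called higher and 12.8% lower. The list median was -0.22 in Ter119pos KO against -0.04 over all genes. Of 8 germ cell genes that E2F6 is known to repress, only Stag3, a meiotic cohesin gene, passed the count filter. It was lower in Ter119pos KO (-1.99; edgeR adjusted p = 0.000189), not called in Ter119neg (-0.51) or unpaired in LK (-0.68), and lower in LK KO with the letter block (-0.83; edgeR adjusted p = 0.0484).

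E2F7 is induced by p53 in human cells, so 12 p53-induced genes were read beside it. They were higher in KO in 11 of 12 cases in Ter119pos, 12 of 12 in Ter119neg and 8 of 12 in LK cells, or 11 of 12 with the letter block, with none lower. Of all genes, 24.8%, 9.57%, 1.15% and 9.9% were called higher in these comparisons, in the same order. The list medians were 3.27, 2.33 and 2.79 in Ter119pos, Ter119neg and unpaired LK. Sesn2, a stress-response gene, was 3.82 ± 0.17 higher in Ter119pos and 2.25 higher in Ter119neg KO on the log2 scale. E2f7 itself was -2.24 in Ter119pos KO, and -0.29 and -0.59 in Ter119neg and LK KO, where it was not called.

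Over the 8 fetal libraries, the genes most like each member were taken by Pearson correlation of log2 CPM among 7826 genes with at least 5 CPM, as a description over 4 groups that differ strongly. Pgm2l1 was the closest to E2f1 at 0.999, followed by Rbl1 and E2f8, both at 0.998. The closest genes were Slc4a1 and Grina to E2f2 (both 1.000), Mettl7a1 and Art4 to Rb1 (both 0.998), Gpr155 and Mybl2 to E2f8 (both 0.999), Kif22 and Ccnf to E2f4 (both 0.998) and Depdc5 and Rev3l to E2f7 (both 0.997). For E2f3 they were Tex261 (0.998) and Sel1l (0.997), and for E2f6 Atm (0.992) and Tmem123 (0.991). E2f5 had its nearest genes at 0.929, Zc3h15 and Rabep1.

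Exons of E2f5, E2f7, E2f8, Rb1 and Rbl2 share bases with a gene on the other strand (for Rb1, Lpar6 and Rcbtb2). The library kit keeps strand, per the labels, but whether counting used it is not given in the sources used here. Where it did not, reads of such a pair could not be told apart.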

How the data were processed

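Expected counts per gene were deposited by the authors in 2 tables, for 6 LK and 8 fetal liver libraries; the submitters' processing notes name STAR 2.5.3, RSEM and the builds GRCm38 and mm10, with no RSEM version. The library kit keeps strand and removes ribosomal RNA, per the labels. Counts were rounded to whole numbers, filtered with filterByExpr, scaled with TMM and tested with the edgeR 4.0.16 quasi-likelihood F test in R 4.3.3, separately for each table, with p-values adjusted by Benjamini-Hochberg over all genes tested and a threshold of 0.05. The 4 fetal groups shared 1 estimate of the spread. Standard errors are the log2 fold change divided by the square root of F. The fit was also run on simulated data, whose outcome is not given here. Alternatives were DESeq2 1.42.0, limma-voom (limma 3.58.1), other scaling and filters, each library left out, and replicate blocks.

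The members and lists were chosen with earlier results of these data known. Named genes are all 10 members, up to 4 genes of smallest p per list and comparison, Cdkn1a, Tfdp1, Tfdp2 and Rbl2, and the genes most like each member. Deviations of same-letter LK libraries correlated at 0.604, 0.719 and 0.73, so the letters were taken as pairs and that block is given beside the LK results. In fetal liver the labels place both fractions of mice 1, 2 and 4 in the same animals, so a mouse block is given where it changes a call between fractions. Replicates of every group differed beyond sampling noise. Gene positions and transcript lengths are from GENCODE M21.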

Additional observations from a re-analysis of the deposited data

Results flagged for a closer look

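The following genes had a KO effect in Ter119pos cells that differed from that in Ter119neg cells by a test of the difference itself (edgeR interaction term, adjusted over all genes tested). On the log2 scale the difference was -1.95 for E2f7, -1.45 for Rb1, -1.31 for E2f8, -1.17 for E2f2 and -0.91 for E2f4. It was -0.79 for Rbl1, -0.75 for E2f1, -0.71 for E2f3, -0.50 for E2f6 and -0.50 for Rbl2. For E2f7, Rb1, E2f8, E2f2 and E2f4 the difference passed the test in all 16 alternatives. It was lost in 12 of 16 for E2f6, 10 for Rbl2, 6 for E2f3, 3 for E2f1 and 2 for Rbl1. Rb1 and Rbl2 had a called KO effect above 0 in Ter119neg cells, and E2f2 one above 0 that was not called (0.14 ± 0.15).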

How the results depend on the processing

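With the letter as a replicate block, 4 members and 7 E2F targets were called in LK cells, against 0 and 0 unpaired. With that block 9.9% of all genes were called higher and 12.8% lower. E2F targets called in LK numbered 1 with no filter on low counts, 2 by DESeq2, 1 by limma-voom, 1 with the length trend removed, and 0 to 1 with a library left out. Of all genes, 312 were called with no filter, 1074 by DESeq2, 303 by limma-voom and 474 with the length trend removed. The main fit called 250. Leaving out 1 library gave 5 to 9 members with a called difference between fractions and 4 to 7 E2F targets in Ter119neg. E2f3 in LK was 0.0296 without both letter B libraries and -0.17 to 0.0666 with a library left out. E2f5 in Ter119pos was 0.0507 in the 4 libraries of the fraction alone, 0.0690 with their letters as a block and -0.35 to 0.13 with a library left out. Its difference between fractions was -0.19 with the length trend removed, -0.27 with a mouse block and -0.19 to 0.31 with a library left out. E2f3 between WT fractions was 0.0301 with the length trend removed, 0.00809 over protein-coding genes and 0.0459 with a mouse block. Rbl2 between KO fractions was -0.0438 with no filter and -0.0672 to 0.18 with a library left out, and in Ter119pos -0.0772 to 0.13. Beyond E2f5 and E2f6 between WT fractions, the mouse block changed no call of a member or Rbl2. The causes were not tested. Fetal letters did not pair libraries (correlations 0.00472 and -0.0288). The length trend, protein-coding and letter B alternatives were chosen after seeing the data.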
